A study of Ovis aries with 12 samples.

Results

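The miR-379 to miR-410 cluster is a row of microRNA (miRNA) genes on chromosome 18 of the sheep. Its members were taken by name, as every miRNA on the array whose base name belongs to the cluster, with the miR-376 names left out. This gave 83 mature miRNA, with the 5p and 3p arms of a hairpin counted apart, from 43 base names. They stood for 83 of the 1250 named miRNA on the array and for 100 of its 3091 probes. Each member was read from 1 probe, which was ovine for 78 members and bovine for 5.

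Total RNA of the left ventricle of Merino sheep was hybridised to a custom Cy3 array of 3098 probes, with 3 animals at each of 4 ages. The fetal groups were F91 (91 days of gestation, given as 90 days in another field of the labels) and F140 (141 days by the labels), and the postnatal groups were P5 (lambs 5 days old) and P173 (lambs 173 days old). All 12 animals were untreated controls of normal development, and the labels called the 3 animals of an age biological replicates. F91 replicate 3 was male and the 11 others were female, and twins made up the whole P5 group and 1 F140 fetus (replicate 2), so that litter size and age cannot be told apart at P5.

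Values were normalised intensities in arbitrary units, and a value under 32 units was read as not above background. Between 906 and 1064 probes an array reached 32 units. A scan was dim for its age on the arrays of F91 replicate 3 and of P173 replicate 2 (90th percentile of the scanner intensities 327.8 and 708.7 units, against up to 802.7 and 2015.4 in the same groups). P5 replicates 1 and 2 carried array names that differ only in the last letter and may be co-twins. The cardiomyocyte miRNA (miR-1, miR-133a, miR-133b, miR-208a, miR-208b and miR-499, 14 arms) summed to between 32649 and 75461 units on every array, and those of liver and brain stayed at or below 68 units.

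A miRNA gene is transcribed as a long precursor that is cut into a hairpin, and either arm of the hairpin can become a mature miRNA of about the length shown here. The mature miRNA pairs with messenger RNA mainly through its seed, bases 2 to 8, and lowers the output of the messengers it binds. The cluster lies in the imprinted DLK1-DIO3 domain, where the maternal chromosome expresses long noncoding RNA that carry the miRNA, and in sheep the same domain holds the callipyge locus of muscle growth. In rats, miR-410 and miR-495 are known to raise the proliferation of newborn cardiomyocytes, and in mice miR-329, miR-487b, miR-494 and miR-495 are known as brakes on new vessel growth.

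The sequences of the 15 members with the highest levels are shown first, because the values below belong to them. They are the target sequences given for the probes in the scanner files, 5′ to 3′, with the seed in capitals. The first group holds 3p arms that were lower at P173.
miR-411a-3p: uAUGUAACacgguccacuaac
miR-379-3p: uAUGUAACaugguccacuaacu
miR-380-3p: uAUGUAAUgugguccacgucu
miR-329a-3p: aACACACCugguuaaccuuuuu
miR-329b-3p: aACACACCugguuaaccucuuu
miR-487b-3p: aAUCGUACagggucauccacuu
miR-409-3p: cGAAUGUUgcucggugaaccccu
miR-3958-3p: aGAUAUUGcacgguugaucucu

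The second group holds the 5p arms among the 15.
miR-379-5p: uGGUAGACuauggaacguaggc
miR-411a-5p: aUAGUAGAccguauagcguacg
miR-154b-5p: aGAGGUCUuccauggugcauucg
miR-381-5p: aGCGAGGUugcccuuuguau

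The third group holds 3p arms with other profiles.
miR-369-3p: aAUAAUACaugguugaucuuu
miR-494-3p: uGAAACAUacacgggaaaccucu
miR-495-3p: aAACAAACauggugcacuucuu

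These sequences show 2 shared seeds. miR-379-3p and miR-411a-3p had the seed AUGUAAC and differed at a single base, U10C, over the first 21 bases, with positions counted from 1 at the 5′ end and the base of miR-379-3p given first. miR-329a-3p and miR-329b-3p had the seed ACACACC and differed only by U19C, with the base of miR-329a-3p first. Probes to such near copies can bind both miRNA, so their levels cannot be told apart with certainty.

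Members of the cluster were detected best in the young fetus and were lowest at P173. Of the 83 members, 36 reached 32 units on some array and 47 were under 32 units on every array, with a median of 3 units among the latter. The number of members under 32 units on all 3 arrays of an age was 51 at F91 and 56 at F140, and it was 58 at P5 and 74 at P173. Over the 4 ages, the F-test called 18 of the 83 members and 8.7% of all probes. The 15 members shown above averaged 100 units or more at their brightest age. Since that choice used the brightest age, counts over the 15 are given as a description. The members nearest the limit were miR-154b-5p (110.3 units at F91) inside it and miR-485-3p (97 units at F91) outside it.

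**Figure D1:**
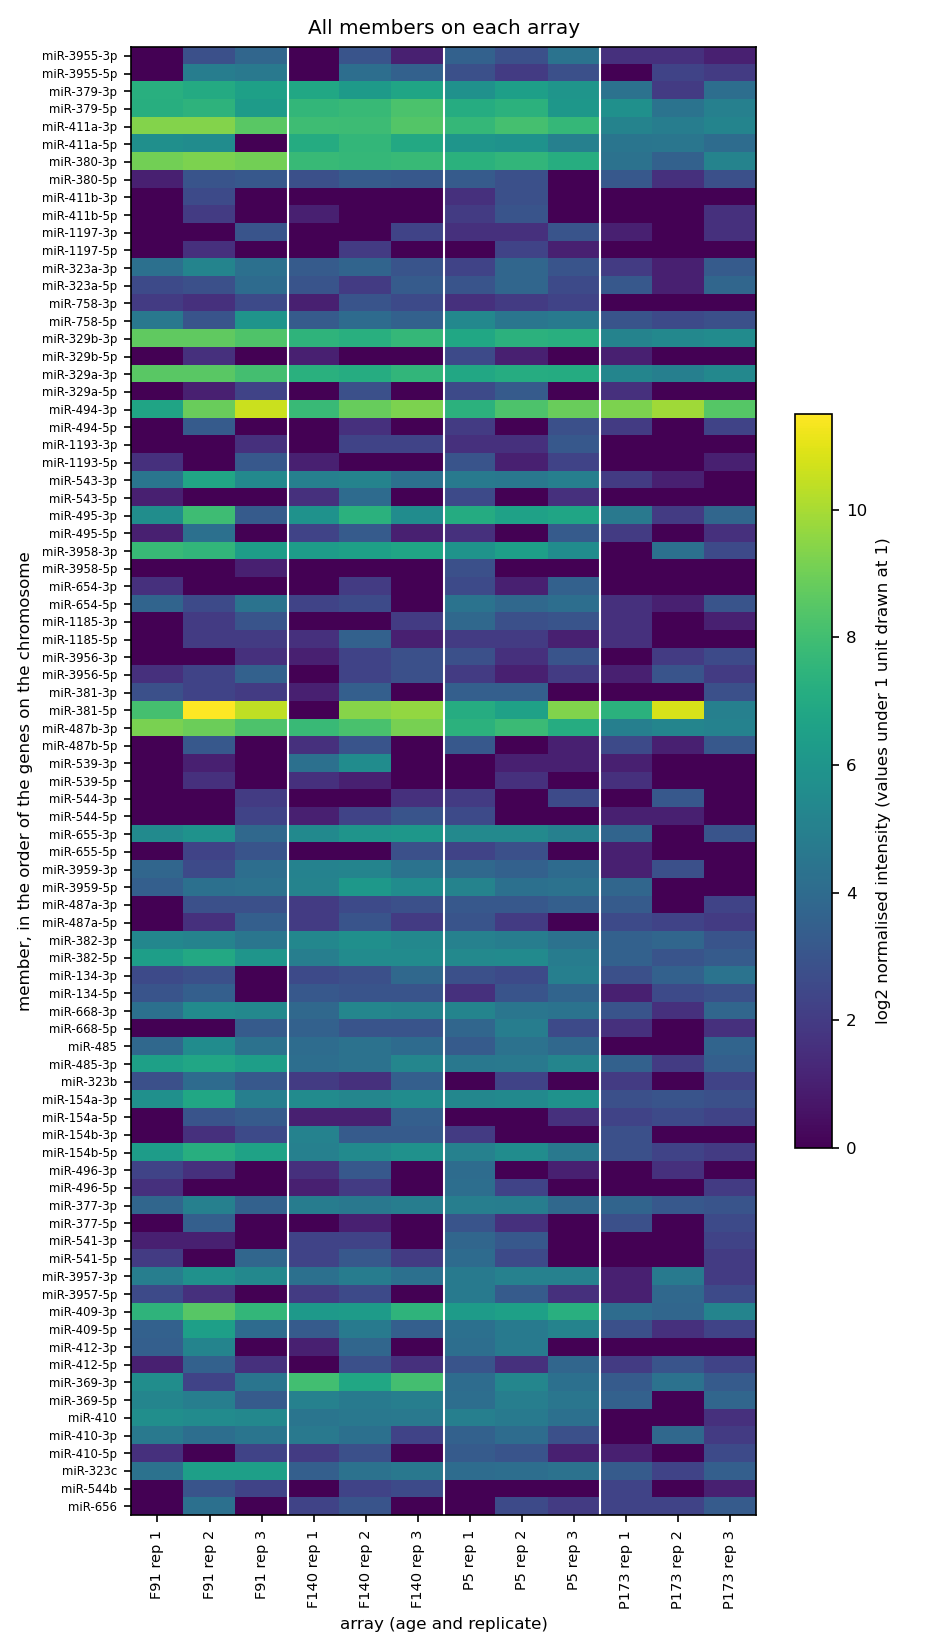
Log2 normalised intensity of all 83 members (rows, in the order of their genes on the chromosome, with miR-544b and miR-656, which had no place in the annotation, last) on each of the 12 arrays (columns, by age and replicate); values under 1 unit are drawn at 1. Most bright rows darken in the 3 P173 columns, while the rows of miR-494-3p and miR-381-5p do not.

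The comparison of P173 with P5 covered growth after birth. In this contrast 13 of the 83 members (15.7%) were lower at P173 and none was higher, against 0.679% of all 3091 probes that were lower at this adjusted p (limma, adjusted over all probes, at most 0.05). Of the 21 probes called lower on the whole array, 14 were probes of the cluster, 3 were probes of other miRNA of the imprinted domain and 4 belonged to neither. At an unadjusted p under 0.05, 30 members were lower and 1 was higher, and 10.9% of all probes passed in either direction. The median fitted log2 change was -2.05 over the 83 members and -0.16 over all probes, on the log2(value + 0.1) scale. Many members lay near 0 units, where this scale is noisy. Among the 13 called, miR-410, miR-543-3p and miR-758-3p were under 32 units on every P5 and every P173 array. For these no fold between the ages can be given.

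The count of 13 fell when most single lambs were left out, and so did the 49 calls over all probes. Without P5 replicate 1, 2 or 3 the member count was 3, 2 or 4 (13, 12 or 18 over all probes). Without P173 replicate 1 or 2 it was 6 or 8 (18 over all probes each time). With P5 replicates 1 and 2 averaged as possible co-twins it was 2 (9 over all probes). Without the dimmest scan of F91 and of P173 it was 9 (24 over all probes). Both settings were chosen after the data had been seen. The count was 5 with values under 32 units set to 32 (41 over all probes), and 4 from the scanner intensities normalised afresh (53). To the latter a constant was added before logs were taken, which shrinks the log2 changes of low values. The calls of miR-380-3p and miR-411a-3p held in all 25 alternatives, at log2 changes from -3.4 to -1.35 and from -2.83 to -1.48, the smallest of each from the scanner intensities. In a total of 34 of the 83 members (41%) the 3 P173 arrays lay below the 3 P5 arrays, as did 9.96% of all probes. Among the 15 brightest members 9 were called lower, and 1.9% of the 316 other miRNA as bright were.

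miR-411a-3p had the brightest F91 mean of the members that fell. It was at 669, 650 and 371 units on the 3 F91 arrays, 246, 238 and 346 at F140, 202, 273 and 205 at P5, and 35, 29 and 36 at P173. Every P173 array was far below every other array, and F91 lay above both F140 and P5. From P5 to P173 the level fell 6.75-fold (log2 change -2.75, SE 0.35, adjusted p = 0.0015), with 2 of the 3 P173 arrays above background.

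miR-380-3p, encoded close by, gave 523, 607 and 525 units at F91, 215, 205 and 213 at F140, 162, 191 and 144 at P5, and 20, 12 and 35 at P173. The 4 ages formed steps that did not overlap. The log2 change from P5 to P173 was -3.01 (SE 0.39, adjusted p = 0.0015), to 22.3 ± 11.7 units (SD, n = 3), with only 1 of the 3 P173 arrays above background. With values under 32 units set to 32 it was -2.32.

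miR-487b-3p was at 574, 476 and 311 units at F91, 219, 292 and 566 at F140, 166, 229 and 137 at P5, and 31, 38 and 34 at P173. Its F91 and F140 arrays overlapped, whereas the P173 arrays lay within 7 units of each other below all others. The fall from P5 was 5.05-fold, with 2 P173 arrays above background (log2 change -2.34, SE 0.41, adjusted p = 0.012), and it missed the threshold in 6 of 25 alternatives.

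The near copies of miR-329 moved alike. miR-329a-3p read 379, 375 and 271 units at F91, 159, 141 and 191 at F140, 120, 138 and 133 at P5, and 38, 31 and 41 at P173. miR-329b-3p read 419, 417 and 327 units at F91, 180, 152 and 204 at F140, 116, 167 and 151 at P5, and 35, 41 and 47 at P173. For both, P173 was about at the background limit and every fetal array was above it. The falls from P5 to P173 were 3.57-fold and 3.51-fold (adjusted p = 0.014 for each, lost in 5 of 25 alternatives).

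miR-409-3p averaged 247.3 ± 103.8 units (SD, n = 3) at F91, with 367 and 194 units on replicates 2 and 3, and read 72, 80 and 180 at F140, 79, 94 and 151 at P5, and 17, 14 and 37 at P173. F140 and P5 covered the same range, and P173 was below both. With only 1 P173 array above background, the log2 change from P5 to P173 was -2.32 (SE 0.52, adjusted p = 0.038), and 12 of 25 alternatives ended that call.

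miR-3958-3p, a miRNA named in sheep, read 214, 191 and 84 units at F91, 83, 94 and 108 at F140, 60, 91 and 49 at P5, and 1, 19 and 6 at P173. No P173 array was above background, so P5 was at least 2.01-fold higher (adjusted p = 0.035, lost in 13 of 25 alternatives). miR-379-3p, from the hairpin that names the start of the cluster, read 152, 131 and 93 units at F91, 116, 76 and 110 at F140, 56, 89 and 63 at P5, and 20, 4 and 18 at P173. Here too P173 was under background on all arrays, and P5 was at least 2.12-fold higher (adjusted p = 0.039, lost in 15 of 25 alternatives).

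miR-154b-5p, read from a bovine probe, was the only 5p arm among the 13. Its arrays read 83, 149 and 99 units at F91, 32, 45 and 57 at F140, 33, 49 and 25 at P5, and 7, 5 and 4 at P173. The F91 arrays were above all others and the P173 arrays below all others. P5 was at least 1.07-fold higher than P173 (adjusted p = 0.017, lost in 10 of 25 alternatives), a bound set by the P5 level being so near 32 units. Ovine variant probes of this arm missed the threshold at this step (adjusted p = 0.073 and 0.085), but passed it at P173 against F91 (0.00036 and 0.0016).

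**Figure D2:**
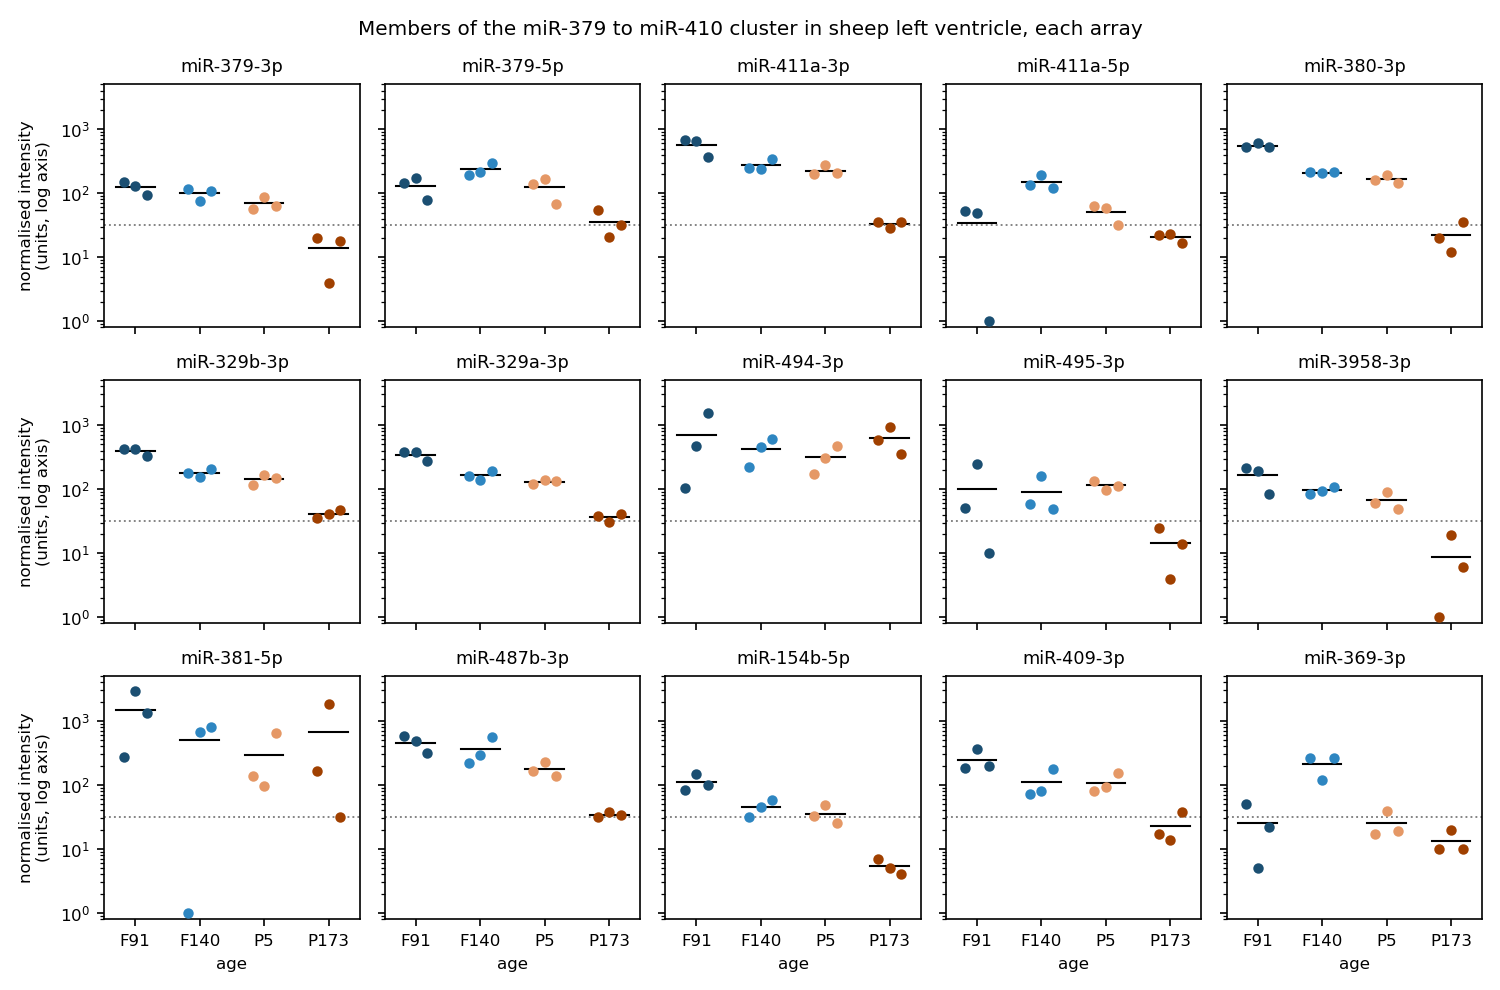
Normalised intensity (units, log axis) of the 15 members that averaged 100 units or more at their brightest age, by age; points are single arrays in replicate order, black lines the means of 3 arrays, the dotted line 32 units, and values under 1 unit are drawn at 1. In 10 of the 15 panels the 3 P173 points lie below the 9 others.

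Over the whole course, P173 against F91, 17 of the 83 members (20.5%) were lower and none was higher, beside 3.53% of all probes called lower. At an unadjusted p under 0.05, 31 members were lower and 1 was higher, and 18.2% of all probes passed in either direction. The median fitted log2 change was -1.52 over the members and 0.01 over all probes. Among the 15 brightest members 10 were called lower, and 46 of the 316 other miRNA as bright (14.6%) were. The log2 change of miR-380-3p was -4.75 (SE 0.39, adjusted p = 6.1e-06), and it was -4.06 with values under 32 units set to 32. That of miR-409-3p was -3.5 (adjusted p = 0.00063), and -2.8 with this floor. Each of these had 1 of 3 P173 arrays above background. miR-411a-3p fell 16.4-fold (adjusted p = 7.7e-06) and miR-487b-3p 12.8-fold (adjusted p = 7.1e-05), each with 2 of 3 P173 arrays above background. miR-329b-3p and miR-329a-3p fell 9.44-fold and 9.25-fold, with 3 and 2 such arrays. The calls of these 6 miRNA and of miR-154b-5p (at least 3.34-fold, adjusted p = 0.00011) held in all 25 alternatives, but the sizes did not. From the scanner intensities the log2 changes were smallest, at -2.81 for miR-380-3p, -2.59 for miR-411a-3p, -2.27 for miR-487b-3p, -1.97 for miR-329b-3p, -1.89 for miR-329a-3p, -1.72 for miR-409-3p and -1.38 for miR-154b-5p. The constant added to those intensities makes log2 changes of low values smaller by construction. Leaving out each array in turn gave between 15 and 19 calls. Without the dimmest scan of F91 and of P173, 16 calls remained in number.

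In P173 against F140, 19 of the 83 members (22.9%) were lower and none was higher, beside 2.43% of all probes called lower. At an unadjusted p under 0.05, 30 were lower and 0 higher, and 13.9% of all probes passed in either direction. Both this contrast and the last share the P173 arrays with the P173 and P5 comparison, so the 3 sets of calls are not independent. The count was 10 without F140 replicate 1, 2 or 3, and 15 to 21 without any other array. Without those F140 replicates the calls over all probes were 42, 51 and 54, against 92 with every array. In all, 20 of the 83 members had every P173 array below the 9 other arrays, as did 2.01% of all probes, and 10 of the 15 brightest did, as did 6.01% of the 316 other bright miRNA.

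The earlier steps gave few calls. P5 against F140, the step across birth, gave no call among the members by limma, beside 1.81% of all probes called in either direction. At the same step 12 of the 15 brightest members were fitted lower, with a median log2 change of -0.36, and 1 member was called in 7 of the 25 alternatives. At an unadjusted p under 0.05, 2 of the 83 members were lower and 3 higher at P5, and 13.6% of all probes passed in either direction. F140 against F91 gave 1 call, a rise of miR-369-3p, beside 3.85% of all probes called higher and 1.68% called lower.

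Between F91 and F140, 11 of the 15 brightest members were fitted lower, with a median log2 change of -0.68 (0.07 over all probes). In 6 of them, miR-154b-5p, miR-329a-3p, miR-329b-3p, miR-380-3p, miR-409-3p and miR-411a-3p, the F140 arrays were all below the F91 arrays, at fitted log2 changes from -1.38 to -1.0. Such a separation was seen in 18.7% of the 316 other bright miRNA and in 7.15% of all probes. These differences missed the threshold (for miR-380-3p, adjusted p = 0.055), and they moved with the processing. In the main fit of this step 171 of all probes were called in either direction. Scanner intensities normalised afresh gave 11 member calls, 9 of them lower (239 calls over all probes). Values under 32 units set to 32 gave 8, of which 6 were lower (141 over all probes). Taking out a trend with GC content gave 4, all lower (157 over all probes).

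**Figure D3:**
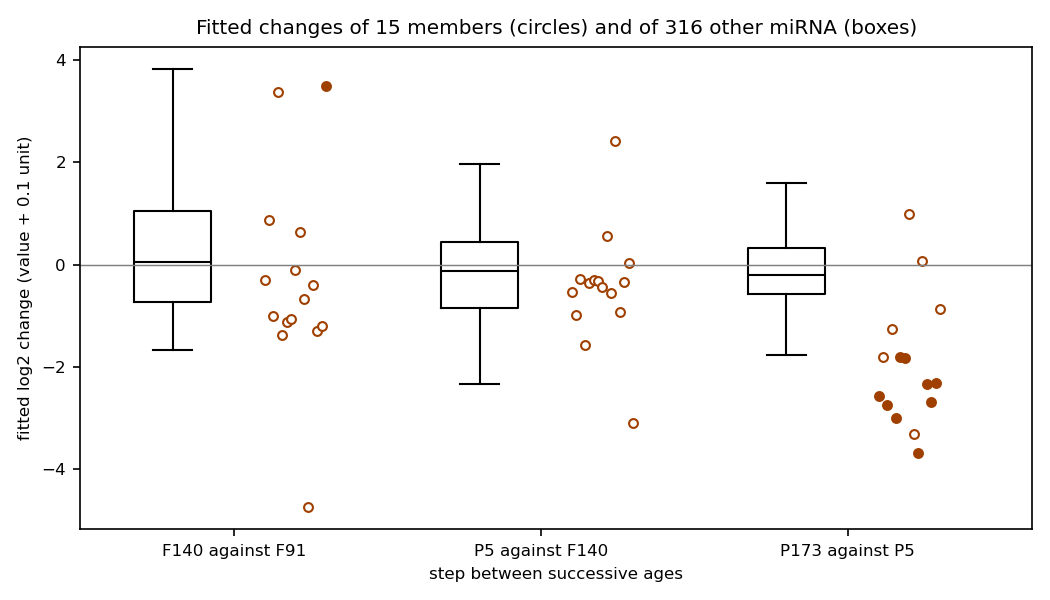
Fitted log2 change at each step between successive ages for the 15 brightest members (circles, filled where the adjusted p was at most 0.05) and for 316 other miRNA as bright (boxes: median and quartiles, whiskers from the 5th to the 95th percentile). The members centre on -0.68, -0.36 and -2.32 at the successive steps.

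A few members had their highest level at F140. miR-369-3p read 50, 5 and 22 units at F91, 260, 117 and 267 at F140, 17, 39 and 19 at P5, and 10, 20 and 10 at P173. Only the F140 arrays were all above background, and they did not overlap any other age. Against F91, where 1 of 3 arrays was above background, the log2 change was 3.50 (SE 0.76, adjusted p = 0.019), and it was 2.44 with values under 32 units set to 32. Without F91 replicate 2 the rise was 2.6 and missed the threshold (adjusted p = 0.056), and 8 of 25 alternatives ended the call. F140 was at least 6.27-fold higher than P173 (adjusted p = 0.01). With a GC content of 23.8% it had the lowest GC content of the 15, and at F140 log2 values fell with GC content across probes, by -0.32 ± 0.15 for each 10% of GC (SD, n = 3), against 0.18 ± 0.36 at F91. With that trend taken out both calls were lost and the rise was 2.19 on the log2 scale. Without the dimmest scan of F91 and of P173 the rise was 3.65 and also missed the threshold.

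miR-411a-5p read 53, 49 and 1 units at F91, 134, 196 and 122 at F140, 64, 58 and 32 at P5, and 22, 23 and 17 at P173. F140 stood above all other ages, but F91 replicate 3 was near 0 and no contrast passed the threshold (F140 against F91, adjusted p = 0.1). miR-379-5p read 146, 171 and 79 units at F91, 195, 213 and 299 at F140, 139, 168 and 68 at P5, and 54, 21 and 32 at P173. Its F140 arrays were the highest of the 4 ages and its P173 arrays the lowest. The fall from F140 to P173 was 6.98-fold (adjusted p = 0.0061) and held in all 25 alternatives, while P173 against P5 missed the threshold (log2 change -1.81, adjusted p = 0.094).

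Arms of a hairpin come from the same precursor, and their profiles could be set side by side within each probe. In the miR-411a hairpin the 3p arm averaged 563.3 units at F91 and 276.7 at F140, and the 5p arm 34.3 and 150.7. The size of the fitted change of the 5p arm depends on the 1 unit of F91 replicate 3, while every F140 array lay above every F91 array. In the miR-379 hairpin the changes from F91 to P173 were -3.43 for the 3p arm and -1.92 for the 5p arm. The difference between arms was not tested. Of 38 hairpins with both arms on the array, 11 had only the 3p arm over 32 units on all 3 arrays of some age. A further 3 had only the 5p arm, 3 had both and 21 had neither. The 21 include miR-410, whose 3p arm was read here from a variant probe. The bovine probe named miR-410, which carries no arm in its name, was over 32 units on all 3 F91 arrays. Signal also depends on how well each probe binds, so an arm under background here may still be present.

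The remaining bright members varied more between animals of an age. miR-495-3p, one of the miRNA linked to cardiomyocyte proliferation in rats, read 50, 244 and 10 units at F91, 59, 160 and 48 at F140, 134, 97 and 110 at P5, and 25, 4 and 14 at P173. The P173 arrays were under background and below all P5 arrays, but F91 replicate 3 fell among them. The change from P5 to P173 was -3.32 on the log2 scale (SE 0.96, adjusted p = 0.13).

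miR-494-3p did not show the fall. It read 105, 474 and 1547 units at F91, 223, 457 and 601 at F140, 169, 308 and 471 at P5, and 593, 919 and 350 at P173. The ages overlapped throughout, and the fitted change from P5 to P173 was 0.99 on the log2 scale (SE 0.77, adjusted p = 0.7). Its highest values at F91 and at P173 were on the dimmest scan of each of these ages, F91 replicate 3 and P173 replicate 2. Whether scan brightness took part was not tested.

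miR-381-5p was the most variable member. It read 272, 2895 and 1339 units at F91, 0, 678 and 805 at F140, 137, 95 and 635 at P5, and 162, 1807 and 32 at P173. Within each age the arrays differed by several fold, and no contrast passed the threshold. The spots of the same array also differed in the scanner values, after the median of the empty spots of that array had been subtracted. On F140 replicate 1 the 3 spots of the probe gave between -8.3 and 224.7 units, and on P173 replicate 1 between 199.5 and 1022.3. An ovine variant probe of this arm averaged 352.3 units at its brightest age. Its log2 change was 1.7 at F140 against F91, where the exact probe gave -4.8. At P173 against F91 the 2 probes gave 1.1 and -2.3, and none of these was called.

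miR-381-5p and miR-494-3p made up much of the summed intensity. The sum over the 15 members was 3870, 7201 and 5273 units at F91, 2193, 3144 and 4117 at F140, 1654, 2086 and 2393 at P5, and 1070, 2987 and 713 at P173. P173 replicate 2 thus lay among the younger animals. Without these 2 members, a choice made after their values had been seen and given with no test, the sum was 3493, 3832 and 2387 units at F91, 1970, 2009 and 2711 at F140, 1348, 1683 and 1287 at P5, and 315, 261 and 331 at P173. In this sum the P173 arrays were well below all others.

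**Figure D4:**
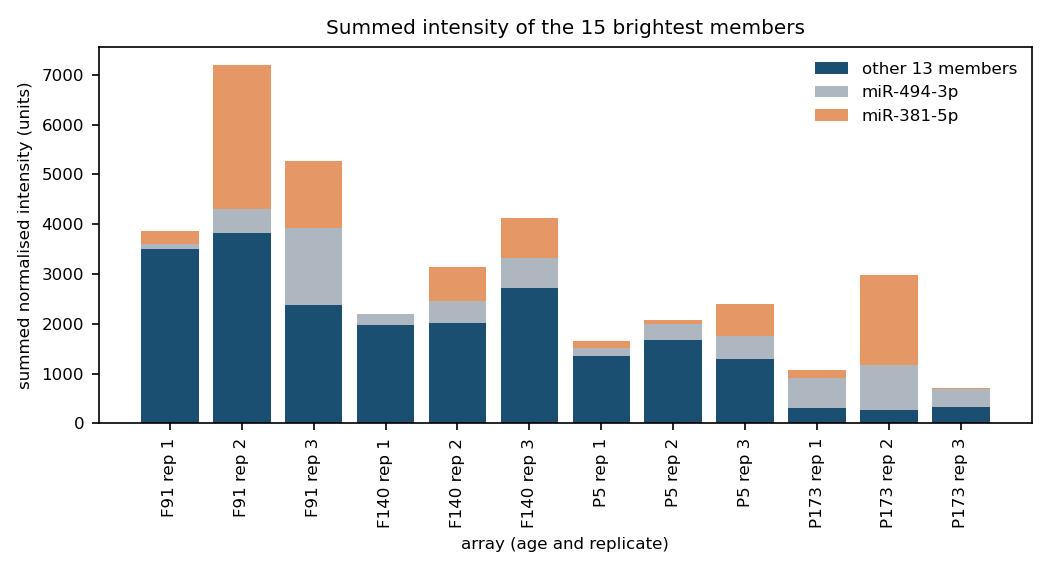
Summed normalised intensity (units) of the 15 brightest members on each array, with the shares of miR-494-3p and miR-381-5p marked apart from the other 13. The part of the other 13 is 1287 to 3832 units on the 9 younger arrays and 261 to 331 units at P173.

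Pearson correlations over the 12 arrays were computed between each of the 15 and the mean centred log2 profile of the other 14. They are descriptive, since the arrays share their 4 ages and the members share base composition and arrays. miR-487b-3p (0.97), miR-411a-3p (0.96), miR-154b-5p (0.94), miR-329a-3p (0.93) and miR-329b-3p (0.92) followed the rest most closely. miR-495-3p stood at 0.61, miR-369-3p at 0.27, miR-411a-5p at 0.19, miR-381-5p at 0.02 and miR-494-3p at -0.24.

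The falls were spread along the cluster. In the RefSeq annotation of assembly ARS-UI_Ramb_v3.0, used for gene order only, 41 of the 43 base names were found, all on chromosome 18. Between the first (miR-3955) and the last (miR-323c) there were 47 miRNA genes, of which 41 were members and 6 were miR-299 and miR-376a to miR-376e. Members called lower at P173 against F91 ran from miR-379 near the start to miR-410 and miR-323c at the end. The members that did not follow the fall, such as miR-494-3p and miR-381-5p, lay between them. Of the 36 members over 32 units on some array, 33 were fitted lower at P173 than at F91 (median log2 change -2.78) and 34 were lower than at P5 (median -2.18); these 36 passed a limit that the brightest age alone could meet, so the counts are descriptive.

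**Figure D5:**
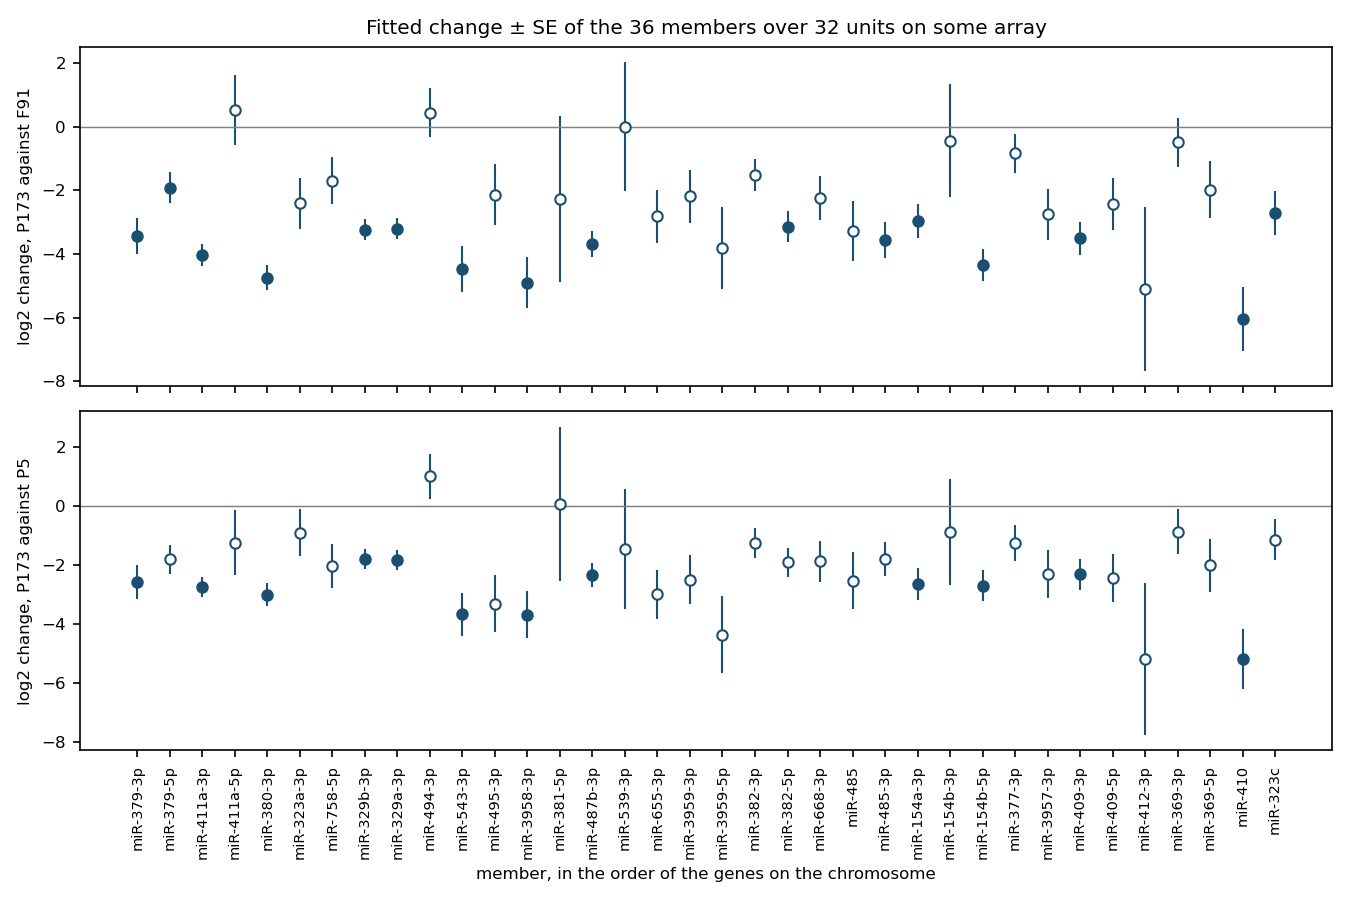
Fitted log2 change ± SE at P173 against F91 (top) and against P5 (bottom) for the 36 members that reached 32 units on some array, in the order of their genes on the chromosome; filled points had an adjusted p of at most 0.05. All filled points lie below 0, and in both panels they start at miR-379-3p on the left. They run to miR-323c in the top panel and to miR-410 in the bottom panel.

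Dimmer members that passed a test in some comparison or over the 4 ages numbered 10 of the 68 that averaged under 100 units at every age (14.7%), beside 11.2% of all probes and 4.7% of the 851 other named miRNA as dim. None of the 68 reached 32 units on any P173 array, and the highest value any of them had was 121 units. miR-485-3p read 92, 111 and 88 units at F91 and 12, 4 and 11 at P173, at least a 3.01-fold difference (adjusted p = 0.0012, held in all 25 alternatives). miR-382-5p read 88, 121 and 63 units at F91 and 12, 8 and 10 at P173, at least 2.73-fold (adjusted p = 0.00086, held in all 25). In both, F91 stood clear of the other ages.

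miR-410, the namesake of the distal end and linked in rats to cardiomyocyte proliferation, was read from a bovine probe at 51, 47 and 41 units at F91, 22, 24 and 25 at F140, 31, 27 and 19 at P5, and 1, 0 and 3 at P173. Only the F91 arrays were above background, so that a fold could be bounded only for F91, at least 1.44-fold higher than P173 (adjusted p = 0.0015). An ovine variant probe, counted as the separate member miR-410-3p, was under 32 units on every array. Neither it nor a bovine variant probe was called at P173 against F91 (adjusted p = 0.19 and 0.94). miR-154a-3p (P5 at least 1.46-fold higher than P173, adjusted p = 0.021) and miR-543-3p (F91 at least 1.46-fold higher, adjusted p = 0.0013) had low values at P173 as well, of 7 to 8 and 1 to 4 units. miR-323c was lower at P173 than at F91 (adjusted p = 0.028, lost in 7 of 24 alternatives). Lower at P173 than at F140 were miR-655-3p (adjusted p = 0.034, lost in 14 of 25), miR-3959-3p (adjusted p = 0.03, lost in 12 of 24) and miR-3959-5p (adjusted p = 0.036, lost in 16 of 25). miR-758-3p was called lower at P173 against each of the other ages, but it never exceeded 8 units and no fold can be given.

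The members shared short stretches of letters, which in many of them overlapped the end of the seed. The letters ACANGG, where N is any base, occurred in 17 of 39 3p arms of the cluster (43.6%) and in 0 of 38 5p arms, against 1.29% of the 1167 other named miRNA. GGUNNNCC occurred in 14 of the 38 5p arms (36.8%) and in 10 of the 39 3p arms (25.6%), against 1.37% of the others. Only the given strand of the mature miRNA was searched, and both patterns were picked after the sequences had been read. Among the 15 brightest, ACANGG was present in miR-379-3p, miR-411a-3p and miR-487b-3p, which were lower at P173, and also in miR-369-3p, miR-494-3p and miR-495-3p. The median GC content was 42.9% for the 15 and 47.7% for the 316 other bright miRNA.

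The rest of the imprinted domain was represented by 29 miRNA outside the cluster list. At P173 against P5, 3 of the 29 were called lower, beside 0.679% of all probes. Against F91 it was 4 (3.53% of all probes) and against F140 7 (2.43%), and none was higher. miR-432 read 783, 951 and 901 units at F91 and 24, 13 and 34 at P173, where 1 array was above background (log2 change -5.31, adjusted p = 4.4e-06). miR-127, which lies in the same domain, read 1340, 1312 and 1799 units at F91 and 96, 121 and 199 at P173 (11.1-fold, adjusted p = 2.1e-05). These 2 and miR-493-5p were also the 3 miRNA, of 1167 compared, whose profile over the 12 arrays was most like the mean of the 15 members (Pearson r of 0.94 for miR-432, 0.93 for miR-493-5p and 0.88 for miR-127). miR-15b-5p and miR-155, from elsewhere in the genome, came next at 0.87 each. At F140 against F91, 2 of the 29 were called higher and 2 lower, beside 3.85% and 1.68% of all probes. The lower were miR-127 (log2 change -1.22, adjusted p = 0.047) and miR-432 (-1.73, adjusted p = 0.027). The miR-376 genes sit among the members, and miR-376b-3p and miR-376c-3p were higher at F140 than at F91, as miR-369-3p was. miR-376c-3p read 333, 87 and 106 units at F91 and 909, 787 and 1139 at F140 (adjusted p = 0.014).

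The whole left ventricle was sampled, so fewer cells of a type and less RNA in each cell cannot be told apart. Among the marker lists, that of fibroblasts (miR-199a, miR-214 and miR-21, 5 arms) fell with age in its summed level, mostly through miR-214. Its summed level lay between 7735 and 10830 units at F91 and between 4755 and 7481 at F140, then between 2537 and 4375 at P5 and between 1143 and 1486 at P173, and 1 of its 5 arms, miR-214, passed the test at P173 against P5 and against F91, while 4 of the 5 did at P173 against F140. miR-214 averaged 7475 units at F91 and 575.7 at P173, which was most of the fall of the sum. The fall of the sum from F91 to F140 was that of miR-214. At that step miR-199a-3p and miR-199a-5p were fitted higher, by 1.46 and 1.03 on the log2 scale, but were not called. miR-21 was called higher at F140 (47 to 258 units at F91 and 765 to 1043 at F140, adjusted p = 0.0095). The median fitted log2 change of the list was 1.03 at that step, and miR-21 was fitted at 0.61 for P173 against F91. The arm miR-214-5p was under 32 units at every age. The part of this shift in the fall of the members was not tested. The endothelial list (931 to 4223 units at F91 and 3544 to 3974 at P173) and the smooth muscle list (7737 to 10522 and 8775 to 9503) did not show such a fall, and the red cell list was higher at P173 (5397 to 7924) than at F91 (803 to 2174). The cardiomyocyte list lay between 32649 and 37204 units at F91 and between 61872 and 75461 at F140, then between 46930 and 59494 at P5 and between 61189 and 68243 at P173. Of its 14 arms, 7 were called higher at F140 than at F91 and 6 higher at P173 than at F91, none was called at P173 against P5, and its part was not tested either.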

How the data were processed

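The authors had hybridised total RNA to the array, corrected the background, normalised between arrays and combined the spots of a probe. The deposited score is a normalised intensity in whole numbers, named lowess in its table; the deposited series matrix holds the same intensity with decimals (within 0.5 units over 3141 shared probes), and the deposited scanner files hold an intensity per spot without background correction. The software version was not given in the sources used here.

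Of 3146 probes in the table, 55 were controls and 3091 were tested without a filter. Log2(value + 0.1) was fitted over the 12 arrays with limma 3.58.1 in R 4.3.3 (lmFit, eBayes with a variance trend), followed by 5 contrasts and an F-test across all ages. The methods' ANOVA was an alternative. P-values were Benjamini-Hochberg adjusted over all probes, and calls were made at 0.05. An age was not above background where its 3 arrays were under 32 units; folds against it were computed with 32 units and are written as at least. Folds compare means of log2(value + 0.1), where values near 0 weigh heavily and can enlarge a fold. Spot values from the scanner files had the median of the empty spots of their array subtracted. In the alternative from scanner intensities, a constant was also added to the corrected values before logs were taken. Tables were handled in Python 3.11.15 with pandas 2.3.3.

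A member was read from its exact ovine probe, then the bovine one, then any other, ties going to the brightest. Members that averaged 100 units or more at the brightest age are named, as is any member that passed a test. The members and gene lists were chosen with earlier results of these data known. Replicate numbers did not pair the animals. The number of arrays limits precision. The fit was tested on simulated data for P173 against F91, with 50 bright probes changed at each size. It called 14% of log2 changes of 1, 90% of 2, 100% of 3 and 98% of 4, with 6 false calls. Changes of about 1 were thus mostly missed.

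Sensitivity was tested with another pseudocount, a floor, a filter, other tables, no variance trend, a GC correction, a replicate block, other probes and arrays left out.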

Additional observations from a re-analysis of the deposited data

How the results depend on the processing

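No call among the members changed direction in any alternative. The numbers of members called were 18 over the 4 ages, 1 for F140 against F91, 0 for P5 against F140, 13 for P173 against P5, 17 for P173 against F91 and 19 for P173 against F140. Over all 3091 probes the calls were 269, 171, 56, 49, 209 and 92. Leaving out each array in turn gave 16 to 20, 0 to 3, 0 to 1, 2 to 14, 15 to 19 and 10 to 21 members. In the next sentences the calls over all probes follow in brackets. For F140 against F91 the member count was 2 with log2(value + 1) (180) and with the brightest probe of each member (171). It was 8 with values under 32 units set to 32 (141), 6 with a filter on dim probes (218 of 1122) and 11 from scanner intensities (239). With the GC trend taken out it was 4 (157), and without the 2 dimmest scans it was 3 (107). It was 0 without a variance trend (37) or with the arrays of the 2 ages only (9). For P5 against F140 the count was 1 with log2(value + 1) (84), the floor of 32 units (46), the filter (83 of 1122) and the scanner intensities (136). For P173 against P5 it was 5 with the floor (41), 4 from the scanner intensities (53) and 3 without the variance trend (9). It was 6 with the arrays of the 2 ages only (46) and 2 with P5 replicates 1 and 2 averaged (9). With the arrays of the 2 ages only, P173 against F91 gave 9 and P173 against F140 gave 11; with the floor the latter gave 9. The methods' ANOVA called 16 members over the 4 ages. The cause of these differences was not tested.

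Replicate numbers did not pair the animals (deviations of same-numbered arrays correlated from -0.376 to 0.481, with 6 of 18 pairs over 0.1). A fit with the replicate number as a block called 17, 1, 0, 12, 18 and 16 members in the 6 tests. With the block and the GC trend taken out, F140 against F91 gave 3 and P173 against F140 gave 12.

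The array limits what can be said of the 47 members under 32 units on every array. The median change of probes above background itself moved with the scaling, from 0.24 for P173 against F91 in the deposited table to 0.10 after scanner quantile normalisation, which is small beside the falls given above.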
